A study of Homo sapiens with 10 samples.

Results

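The genes of cholesterol and fatty acid synthesis were followed on 10 Illumina Human-8 V1 bead arrays of the melanoma line MDA-MB-435. The set was listed by name with earlier results of these data known, so its shares beside those of all genes are descriptions. It holds 33 genes, among 16364 genes with an annotated probe on the array. Of the 33, 32 had a probe and 31 had a probe with a detection score of at least 0.99 on 1 or more arrays, the condition for entering the tests. Of the members outside the tests, MSMO1, a sterol C4-methyl oxidase, had signals of 63.9 to 83.2 and was not detected on any array, and FDFT1 (squalene synthase) was not analysed here.

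Every array carried total RNA of MDA-MB-435 cells kept under standard growth conditions, and each of the 5 groups had 2 arrays that the design text calls biological duplicates. The untreated cells received no agent. The HGF groups were the same line treated with hepatocyte growth factor, a ligand of the MET receptor that drives proliferation and motility, for 1 h, 6 h or 24 h. The ITGB4 group was transduced with integrin beta-4 to raise its expression stably, and is not labelled with HGF. The dose of HGF, the promoter of the ITGB4 construct and whether the transduced cells were 1 clone are not given in the sources used here, and no vehicle, empty-vector or time-matched untreated arrays were analysed here.

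Cells make cholesterol from acetyl-CoA through the mevalonate pathway, in which acetyl units are joined into isoprenoids, isoprenoids into squalene, and squalene is closed into a sterol ring that is then trimmed to cholesterol. Fatty acids come from the same acetyl-CoA by carboxylation, chain building, elongation and desaturation. Many genes of both routes are switched on by the SREBP transcription factors, which are held in the endoplasmic reticulum by SCAP and the INSIG proteins while sterols are plentiful and are released to the nucleus when sterols fall.

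Arrays differed in ways the groups do not explain. Between 42.4% and 49.4% of probes were detected per array. On replicate 1 of the untreated, HGF 1 h, HGF 6 h and HGF 24 h groups the dimmest probes had much lower detection scores than on the other 6 arrays, and differences are therefore also given within these low-score arrays and within the high-score arrays, as 1 array against 1. The transduced gene was as labelled. ITGB4 had signals of 6788.1 and 5022.9 in the ITGB4 group and 59.6 to 63.9 on the other 8 arrays. Of the 6 melanocyte genes measured, 5 (MLANA, PMEL, TYR, SOX10 and MITF) were detected on all arrays and S100B on 9. Of the 5 epithelial genes, KRT18 (signals up to 569.5) was detected on all arrays, KRT8 on 9, and EPCAM, CDH1 and KRT19 on none. All 3 fibroblast genes were not detected on any. Of the immune genes, PTPRC was detected on 5 arrays, CD79A on 2 and CD3E on none, with signals up to 98.4. Of the adipocyte genes, ADIPOQ was detected on 7, PLIN1 on 6 and LEP on none, with signals up to 135.8.

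Signals are bead intensities after quantile normalisation, on a linear scale, and differences are in log2 units. A signal of 89.6 is about the limit of detection. Levels of different probes cannot be read as amounts of RNA and are not ranked against each other. Of the 32 tested member probes, 30 were detected on all 10 arrays, STARD4 on 9 and ACACA on 4. The brightest member probe was that of SCD, the stearoyl-CoA desaturase, with a lowest signal of 5557.9 and a highest of 7725.8, and the dimmest tested was that of ACACA, an acetyl-CoA carboxylase, with 65.5 to 109.2. The pooled SD within groups had a median of 0.191 over the members and 0.181 over the 10599 genes tested. A gene was called when its adjusted p from limma, over all probes, was below 0.05.

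Of the 33 members, 29 had at least 1 promoter window in the RefSeq table (GRCh38.p14), each of 300 bases from 250 before to 50 after a start site, and these genes gave 40 windows. A sterol regulatory element written TCACNCCAC, on either strand, was found in 1 of the 40 (2.5%), that of SREBF2, against 1.13% of the 35116 windows of all genes. CCAAT, the letters bound by the SREBP partner NF-Y, was found in 26 (65%) against 34.6%, the GC box GGGCGG in 35 (87.5%) against 45% (56.3% of the 22199 windows of protein-coding genes), and the E-box CACGTG in 6 (15%) against 7.26%. No called member with a window held the sterol element as written. The windows below are shown because HMGCS1 was called in 3 comparisons, more than any other member, NSDHL held 5 CCAAT matches, a number shared with MVK and the highest of the 40 windows, and SREBF2 held the only match to the sterol element. They were chosen after these values were seen. Capitals mark the sterol element and CCAAT matches in either direction (ATTGG on the printed strand for the reverse).
HMGCS1, chr5:43313363-43313662, minus strand: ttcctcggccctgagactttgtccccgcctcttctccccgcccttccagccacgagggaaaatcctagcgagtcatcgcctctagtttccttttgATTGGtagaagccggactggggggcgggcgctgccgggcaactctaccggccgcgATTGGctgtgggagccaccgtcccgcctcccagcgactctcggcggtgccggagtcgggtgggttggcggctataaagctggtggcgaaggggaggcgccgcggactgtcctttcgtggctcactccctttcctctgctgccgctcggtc
NSDHL, chrX:152830813-152831112, plus strand: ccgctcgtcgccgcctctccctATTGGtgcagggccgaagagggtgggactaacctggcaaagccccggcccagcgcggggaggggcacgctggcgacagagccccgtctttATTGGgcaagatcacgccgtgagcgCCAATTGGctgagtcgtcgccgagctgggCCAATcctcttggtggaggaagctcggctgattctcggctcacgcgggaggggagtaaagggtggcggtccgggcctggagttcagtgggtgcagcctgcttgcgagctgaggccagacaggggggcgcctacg
SREBF2, chr22:41832855-41833154, plus strand: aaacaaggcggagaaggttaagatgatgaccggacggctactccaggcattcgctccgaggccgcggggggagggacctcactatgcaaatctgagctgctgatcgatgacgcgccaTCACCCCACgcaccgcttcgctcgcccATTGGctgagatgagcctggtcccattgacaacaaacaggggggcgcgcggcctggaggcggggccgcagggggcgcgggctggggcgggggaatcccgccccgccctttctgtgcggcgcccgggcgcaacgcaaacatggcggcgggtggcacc
In the HMGCS1 window, the upstream of its 2 start sites, the 2 matches start at positions -155 and -100 from the start site. In the NSDHL window 5 matches lie between -228 and -84, of which those at -113 and -110 overlap as 1 palindrome. In the SREBF2 window the sterol element starts at -133 and is followed by a CCAAT match at -106. The windows of CYP51A1 and ELOVL6, both called between times, held neither motif. Matches in these letters describe the windows and say nothing of binding.

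The clearest pattern was in time. Several enzymes of the cholesterol route and 1 fatty acid elongase were higher at 6 h of HGF than at 1 h, and lower again at 24 h. Between 1 h and 6 h, 4 of 31 members were called, all higher at 6 h. They were HMGCS1, SQLE, CYP51A1 and ELOVL6. Between 6 h and 24 h, 5 of 31 were called, all lower at 24 h, and they were the same 4 genes and NSDHL. Over all genes, 2.61% were called higher and 2.9% lower from 1 h to 6 h, and 4.85% higher and 4.68% lower from 6 h to 24 h. Both comparisons use the 6 h arrays, so their calls are not independent of each other. With an ordinary pooled-variance test in place of limma's moderated one, 0 members were called between 1 h and 6 h and 2 between 6 h and 24 h. With the low-score and high-score arrays as a block, 7 members were called between 1 h and 6 h, where SC5D was added as higher and LSS and SREBF1 as lower, and 7 between 6 h and 24 h, where SC5D was added as lower and SREBF2 as higher. Calls over all probes rose with this block too, from 4.67% to 12.1% and from 8.31% to 15.4%, so the added members are no result about the set.

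**Figure D1:**
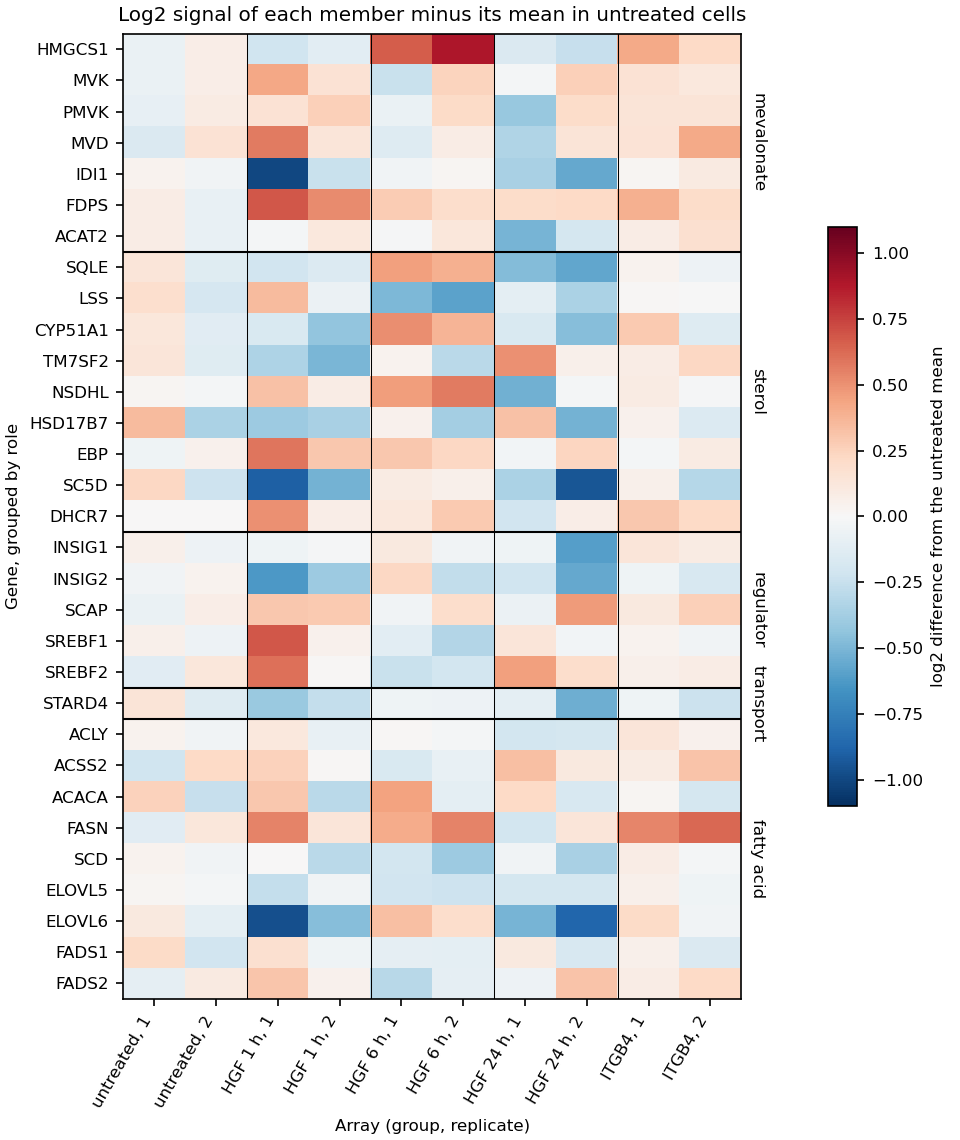
Log2 signal of each of the 31 tested members (rows, grouped by role) on each of the 10 arrays (columns), minus the gene's mean over the 2 untreated arrays; red is higher and blue lower. HMGCS1 stands out in both HGF 6 h columns, and SC5D and ELOVL6 are blue in the HGF 1 h and HGF 24 h columns.

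In the mevalonate steps, HMGCS1, which makes HMG-CoA at the entry of the pathway, changed most. Its signal was 173.4 and 191.9 in untreated cells, 156.1 and 167.4 at 1 h, 290.5 and 337.1 at 6 h, 162.6 and 153.0 at 24 h, and 243.6 and 212.8 in ITGB4 cells. Both 6 h arrays were above the other 8, and the 1 h and 24 h arrays were below both untreated arrays. HMGCS1 rose 1.94-fold from 1 h to 6 h (log2 difference 0.95 ± 0.16 SE, adjusted p = 0.0093) and fell by 0.99 ± 0.16 from 6 h to 24 h (adjusted p = 0.0036). The differences were 0.90 and 1.01 within the low-score and the high-score arrays for the rise, and -0.84 and -1.14 for the fall. It was also the one member called against untreated cells, 1.72-fold higher at 6 h (0.78 ± 0.16, adjusted p = 0.03). That call held under 11 of 19 alternatives and ended when any of the 4 arrays compared was left out (adjusted p of 0.0046 to 0.26 over the alternatives), while the rise from 1 h to 6 h ended without HGF 1 h replicate 1 or either 6 h array (highest adjusted p 0.16) and the fall was called under all 19.

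Among the sterol steps, SQLE, the squalene epoxidase that puts the first oxygen on squalene, had signals of 1537.7 and 1290.0 in untreated cells, 1215.8 and 1273.7 at 1 h, 1919.4 and 1850.4 at 6 h, 1009.3 and 947.6 at 24 h, and 1451.7 and 1350.1 in ITGB4 cells. Its 6 h arrays were the highest of all 10 and its 24 h arrays the lowest. SQLE rose by 0.60 ± 0.16 from 1 h to 6 h (adjusted p = 0.047) and fell by 0.95 ± 0.16 from 6 h to 24 h (adjusted p = 0.0039), a 1.93-fold drop. That drop was -0.93 on the low-score arrays alone and -0.97 on the high-score ones. The rise was close to the threshold and was called under 7 of 19 alternative settings (adjusted p of 0.01 to 0.34), ending without any single array of the untreated, ITGB4, 1 h and 6 h groups, whereas the fall was called under all 19.

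CYP51A1, the lanosterol demethylase, had 869.5 and 730.3 in untreated cells, 708.5 and 590.1 at 1 h, 1136.6 and 1028.2 at 6 h, 707.1 and 574.2 at 24 h, and 966.6 and 718.6 in ITGB4 cells. Both 6 h arrays were again above the other 8. It rose by 0.74 ± 0.19 from 1 h to 6 h (adjusted p = 0.047) and fell by 0.76 ± 0.19 from 6 h to 24 h (adjusted p = 0.029). The rise was called under 9 of 19 alternatives and ended without any single array of the untreated, 1 h and 6 h groups (highest adjusted p 0.25). The fall was called under 12 and ended without either 6 h array or HGF 24 h replicate 2 (highest adjusted p 0.17).

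NSDHL, a sterol dehydrogenase of the C4 demethylation complex, had 780.6 and 761.0 in untreated cells, 963.4 and 817.3 at 1 h, 1062.0 and 1146.9 at 6 h, 535.2 and 760.5 at 24 h, and 819.6 and 763.1 in ITGB4 cells. It differed from the genes above at 1 h, where both arrays were above both untreated arrays. The log2 difference from 1 h to 6 h was 0.31 ± 0.18 (adjusted p = 0.38). NSDHL fell by 0.79 ± 0.18 from 6 h to 24 h (adjusted p = 0.019), a value that was -0.99 within the low-score arrays and -0.59 within the high-score arrays and was called under 12 of 19 alternatives. It ended without either 6 h array or HGF 24 h replicate 1 (highest adjusted p 0.13).

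ELOVL6, which elongates palmitate to stearate, was the fatty acid gene called for both the rise from 1 h to 6 h and the fall to 24 h. Against untreated cells it differed by -0.72 ± 0.20 at 1 h, 0.27 ± 0.20 at 6 h and -0.69 ± 0.20 at 24 h, none of them called. Its signals were 972.4 and 838.2 in untreated cells, 461.1 and 652.9 at 1 h, 1138.3 and 1034.0 at 6 h, 636.7 and 494.4 at 24 h, and 1044.0 and 877.4 in ITGB4 cells. All 4 arrays at 1 h and 24 h were below all 6 others. ELOVL6 rose 1.98-fold from 1 h to 6 h (0.98 ± 0.20, adjusted p = 0.019) and fell by 0.95 ± 0.20 from 6 h to 24 h (adjusted p = 0.012). The rise was 1.3 within the low-score arrays and 0.66 within the high-score arrays. Each call held under 14 of 19 alternatives, the rise ending without HGF 1 h replicate 1 or either 6 h array (highest adjusted p 0.29) and the fall without either 6 h array or HGF 24 h replicate 2 (highest adjusted p 0.11).

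**Figure D2:**
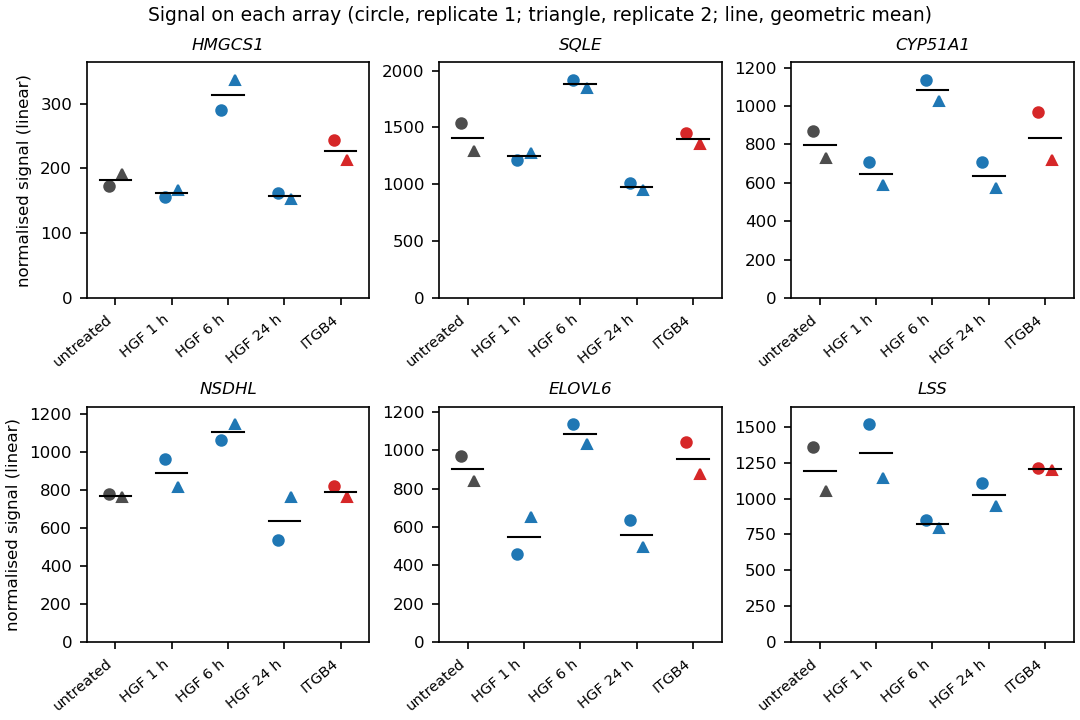
Normalised signal (linear axis from 0) of the 5 members called between HGF times, and of LSS, on each array; circles are replicate 1, triangles replicate 2 and lines the geometric mean of the 2. HMGCS1, SQLE, CYP51A1 and NSDHL are highest on both 6 h arrays and LSS is lowest there.

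SC5D, the sterol C5-desaturase, ran a course like that of ELOVL6, which passed the threshold only in some alternatives. Against untreated cells it differed by -0.71 ± 0.23 at 1 h, 0.08 ± 0.23 at 6 h and -0.65 ± 0.23 at 24 h, none of them called. It had 1024.5 and 743.2 in untreated cells, 467.1 and 607.8 at 1 h, 930.5 and 913.0 at 6 h, and 683.6 and 455.2 at 24 h. The values at 1 h and 24 h were all below both untreated arrays and both 6 h arrays. The log2 difference was 0.79 ± 0.23 from 1 h to 6 h (adjusted p = 0.068) and -0.72 ± 0.23 from 6 h to 24 h (adjusted p = 0.072). In a fit blocked on array background, these had an adjusted p of 0.024 and 0.028, and over all 19 alternatives of 0.013 to 0.52 and 0.016 to 0.39. IDI1, the isopentenyl diphosphate isomerase, had 1068.6 and 1813.8 at 1 h against 2088.1 and 2176.4 at 6 h, and its difference of 0.61 ± 0.21 was not called (adjusted p = 0.12). The 1 h arrays of IDI1 lay far apart, with an SD of 0.54.

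Not all sterol enzymes went this way. LSS, the lanosterol synthase that acts between SQLE and CYP51A1, had 1357.0 and 1051.9 in untreated cells, 1519.0 and 1143.9 at 1 h, 851.3 and 797.7 at 6 h, 1110.0 and 944.9 at 24 h, and 1210.5 and 1196.5 in ITGB4 cells. Its 6 h arrays were the lowest of all 10, where those of its pathway neighbours were the highest. The difference of -0.68 ± 0.19 from 1 h to 6 h just missed the threshold (adjusted p = 0.056), and that against untreated cells was -0.54 ± 0.19 (adjusted p = 0.16). In a fit blocked on array background, both were called, with an adjusted p of 0.0071 and 0.029, and over all 19 alternatives the adjusted p ran from 0.007 to 0.49 and from 0.029 to 0.63. FDPS, the farnesyl diphosphate synthase, was -0.37 ± 0.16 from 1 h to 6 h (adjusted p = 0.21), and its untreated arrays, with 1540.2 and 1384.2, were the lowest of the 10. EBP and DHCR7, which act late in the trimming of the ring, differed by -0.18 ± 0.17 and -0.08 ± 0.18 in the same comparison, and neither was called. The opposite values of LSS and its neighbours were not tested against each other.

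As a group, the 31 members had a median log2 difference of -0.02 from 1 h to 6 h, the same as all genes, and of -0.16 from 6 h to 24 h, where all genes had 0. From 1 h to 6 h, 10 members (32.3%) had both 6 h arrays above both 1 h arrays and 9 (29%) had both below, against 24% and 28.7% of all genes. From 6 h to 24 h, 7 members (22.6%) had both later arrays above and 13 (41.9%) had both below, against 24.6% and 21.3% of all genes. By role, the 9 tested sterol genes had a median of 0.29 and then -0.27, the 7 mevalonate genes -0.14 and -0.18, and the 9 fatty acid genes -0.07 and 0.03. These medians are descriptions and were not tested.

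Set against the whole array series, 4 members (12.9%) had both 6 h arrays above the other 8, against 9.32% of all genes, and they were HMGCS1, SQLE, CYP51A1 and NSDHL. Another 4 (12.9%) had both 6 h arrays below the other 8, against 12.6%, and they were LSS, SREBF1, SREBF2 and FADS2. At 24 h no member had both arrays above the other 8, where 1.97% of all genes did, and 4 (12.9%) had both below, where 2.74% did. Those 4 were ACAT2, the cytosolic acetoacetyl-CoA thiolase, SQLE, NSDHL and ACLY, which supplies cytosolic acetyl-CoA from citrate. NSDHL was among them by a near tie, with 760.5 on HGF 24 h replicate 2 against 761.0 on untreated replicate 2. The shares at 6 h were near those of all genes, and the share low at 24 h was above it, with 0 of these 4 genes called against untreated cells.

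**Figure D3:**
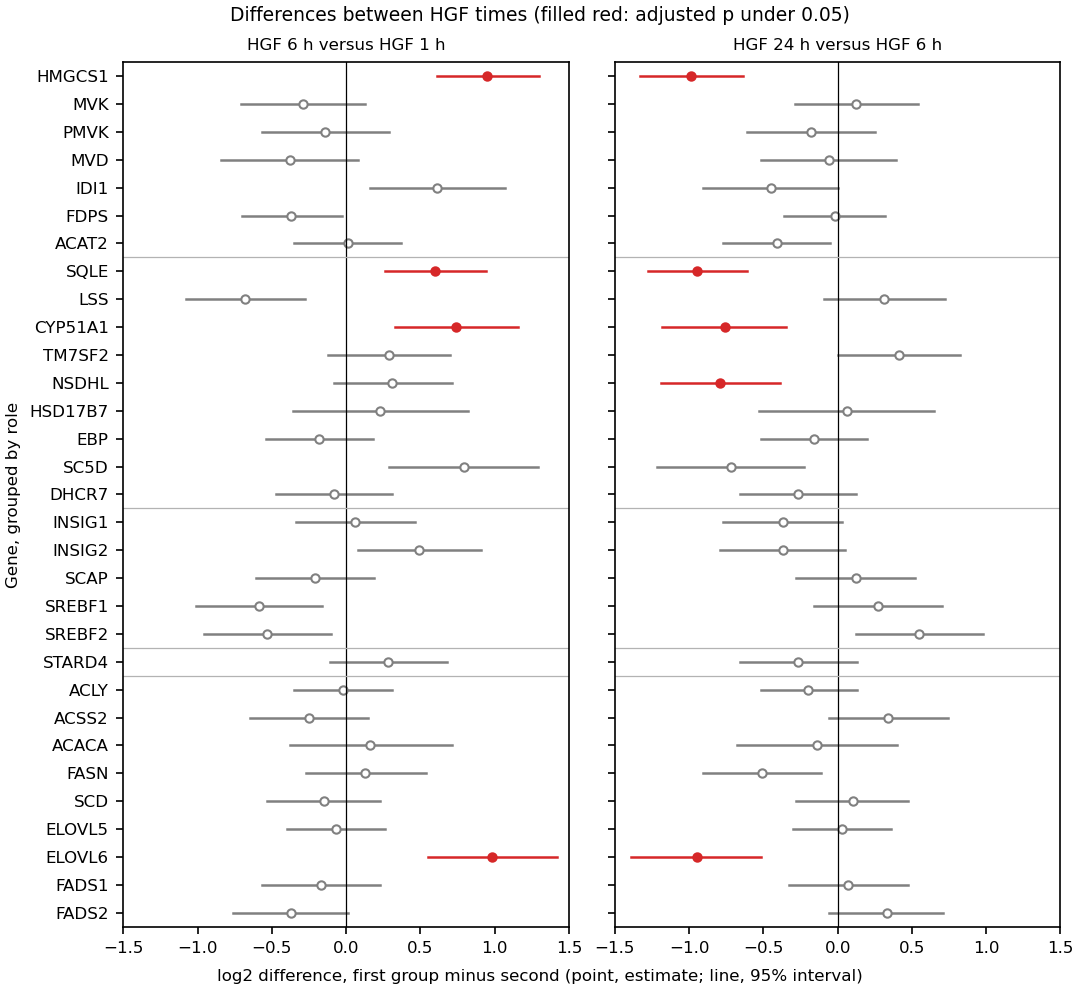
Log2 difference of each of the 31 tested members between HGF 6 h and 1 h (left) and between 24 h and 6 h (right), with its 95% interval from limma; filled red points have an adjusted p below 0.05. The 4 called genes on the left lie above 0 and the 5 on the right below 0, while LSS, SREBF1 and SREBF2 lie on the other side in both panels.

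Among the regulators, SREBF1 and SREBF2 had their lowest HGF level at 6 h, where the called enzymes had their highest, as did SCAP. INSIG2 had its highest HGF level there. The probes of INSIG1 differed, with 0.06 ± 0.19 from 1 h to 6 h for the brighter and -0.15 ± 0.17 for the dimmer, and neither was called. SREBF2, which encodes the SREBP of cholesterol genes, had 1206.2 and 1442.7 in untreated cells, 2001.2 and 1329.1 at 1 h, 1115.7 and 1140.9 at 6 h, 1809.1 and 1511.0 at 24 h, and 1366.9 and 1400.8 in ITGB4 cells. SREBF1, whose products favour fatty acid genes, had 677.8 and 622.6, 1035.8 and 672.5, 595.1 and 519.3, 709.9 and 633.0, and 666.1 and 630.1 in the same order. For both genes the 6 h arrays were the lowest of the 10, and the 1 h arrays differed widely from each other, with an SD of 0.42 for SREBF2 and 0.44 for SREBF1. From 1 h to 6 h the difference was -0.53 ± 0.20 for SREBF2 (adjusted p = 0.14) and -0.59 ± 0.20 for SREBF1 (adjusted p = 0.11). From 6 h to 24 h it was 0.55 ± 0.20 for SREBF2 (adjusted p = 0.11). None of these was called. In a fit blocked on array background, SREBF1 from 1 h to 6 h (adjusted p = 0.022) and SREBF2 from 6 h to 24 h (adjusted p = 0.048) were called. The array measures mRNA, and processing and nuclear entry of the SREBP proteins were not measured.

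SCAP, the escort of the SREBPs, ranged from 934.4 to 1357.0, with 934.4 and 1035.8 in untreated cells, 1212.9 and 1197.6 at 1 h, 964.8 and 1125.0 at 6 h, 944.3 and 1357.0 at 24 h, and 1059.8 and 1188.2 in ITGB4 cells. No SCAP difference was called. INSIG2, a retention protein of the endoplasmic reticulum, had 158.5 and 167.7 in untreated cells, 105.4 and 123.6 at 1 h, 190.8 and 135.5 at 6 h, 140.2 and 110.3 at 24 h, and 157.4 and 143.9 in ITGB4 cells. Its lowest group means lay at 1 h and 24 h, as for ELOVL6 and SC5D. Unlike in those genes, the arrays overlapped, with 135.5 on HGF 6 h replicate 2 below 140.2 on HGF 24 h replicate 1. The INSIG2 difference from 1 h to 6 h was 0.49 ± 0.19 (adjusted p = 0.17).

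INSIG1, its paralog, which is itself a classical SREBP target, was measured by a pair of probes. The brighter had 1676.7 and 1537.7 in untreated cells, 1549.9 and 1597.9 at 1 h, 1728.3 and 1564.7 at 6 h, 1551.0 and 1049.4 at 24 h, and 1763.6 and 1712.0 in ITGB4 cells. The dimmer had 619.3 and 559.3, 818.0 and 676.3, 683.5 and 658.5, 642.1 and 626.6, and 540.4 and 659.8 in the same order. The probes differed at 1 h, where the brighter was -0.03 ± 0.19 and the dimmer 0.34 ± 0.17 against untreated cells, and neither was called in any comparison. STARD4, a carrier of cholesterol between membranes, stayed between 89.5 and 143.0, near the limit of detection.

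**Figure D4:**
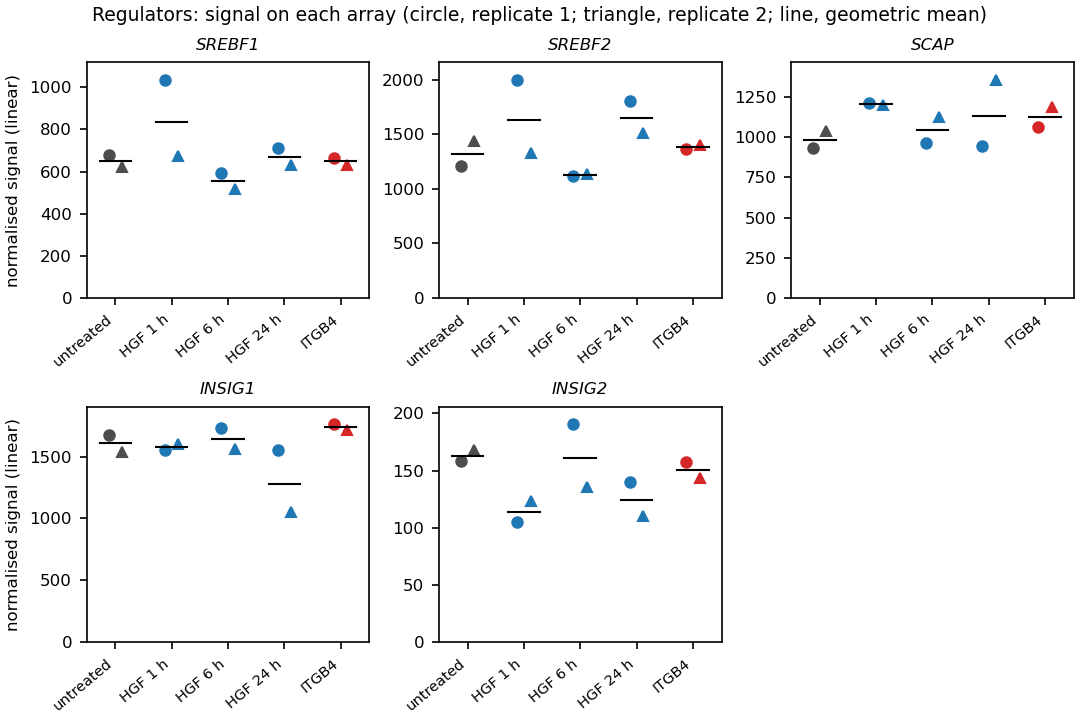
Normalised signal (linear axis from 0) of the 5 regulators on each array, by the brightest probe of each gene; circles are replicate 1, triangles replicate 2 and lines the geometric mean. Both 6 h arrays are the lowest of the 10 for SREBF1 and SREBF2, and the 2 arrays at 1 h lie apart for both genes.

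Against untreated cells, which serve as the reference of all 4 of the following comparisons, fewer members stood out. After 1 h of HGF 0 of 31 members were called, as were 0 of the 10599 genes (0%), while 7 members had an unadjusted p below 0.05 in limma, and the ordinary pooled-variance test also called 0. Fitting only these 2 groups left the members at 0 and called 252 of 14018 probes, of which 238 were lower. The members nearest to the threshold were FDPS, with 1540.2 and 1384.2 in untreated cells and 2335.6 and 2086.1 at 1 h (0.60 ± 0.16, adjusted p = 0.19), ELOVL6 (-0.72 ± 0.20, adjusted p = 0.20) and SC5D (-0.71 ± 0.23, adjusted p = 0.23). FDPS gave 0.60 within the low-score arrays and 0.59 within the high-score arrays, whereas ELOVL6 gave -1.08 and -0.36 and SC5D -1.13 and -0.29. The further large differences were IDI1 at -0.62 ± 0.21, INSIG2 at -0.52 ± 0.19, TM7SF2, a sterol reductase whose 1 h arrays were the lowest of the 10, at -0.42 ± 0.19 with 163.8 and 137.5 against 118.2 and 105.9, EBP at 0.45 ± 0.17 with 440.2 and 470.0 against 686.0 and 559.6, FASN at 0.34 ± 0.19 and MVK, the mevalonate kinase, at 0.29 ± 0.19 with 118.4 and 131.3 against 168.2 and 138.6. Of the 31, 8 (25.8%) had both 1 h arrays above both untreated arrays and 11 (35.5%) had both below, against 25.2% and 22.1% of all genes.

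After 6 h, HMGCS1 was called higher and no member lower, where 1.15% of genes were called higher and 1.07% lower. The ordinary pooled-variance test called 0. Besides HMGCS1, 5 members had an unadjusted p below 0.05 and were not called. These were NSDHL (0.52 ± 0.18, adjusted p = 0.17), SQLE (0.42 ± 0.16, adjusted p = 0.19), FASN, the fatty acid synthase (0.47 ± 0.19, adjusted p = 0.22), CYP51A1 (0.44 ± 0.19, adjusted p = 0.28) and LSS, given above. SCD had 7559.7 and 7122.4 in untreated cells and 6392.1 and 5557.9 at 6 h, a difference of -0.30 ± 0.17. The median over the members was 0, as over all genes. Both 6 h arrays were above both untreated arrays for 9 members (29%) and below for 6 (19.4%), against 20.8% and 26.7% of all genes.

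After 24 h, 0 of 31 members and 0 of all genes (0%) were called, 3 members had an unadjusted p below 0.05, and the ordinary pooled-variance test called 0. Those 3 were SQLE (-0.53 ± 0.16), ELOVL6 (-0.69 ± 0.20) and SC5D (-0.65 ± 0.23), each with an adjusted p of 0.86. IDI1 had 2189.0 and 2086.1 in untreated cells and 1672.8 and 1446.7 at 24 h, a difference of -0.46 ± 0.21. The median was -0.11 over the members and 0.01 over all genes, and on the 2 arrays the members' median against the untreated mean was -0.11 and -0.18. Of the 31, 11 (35.5%) had both 24 h arrays below both untreated arrays and 2 (6.45%), FDPS and SREBF2, had both above, against 16.1% and 15.1% of all genes. The share below was thus above that of all genes, without a single gene passing the test.

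In ITGB4 cells 0 of 31 members were called, against 1 of all genes (0.00943%), which was ITGB4 itself. FASN was the 1 member with an unadjusted p below 0.05, and the ordinary pooled-variance test called 0 members. FASN had 2904.3 and 3449.0 in untreated cells and 4566.7 and 4909.1 in ITGB4 cells, so that the groups did not overlap (0.58 ± 0.19, adjusted p = 1 in limma). HMGCS1 was 0.32 ± 0.16, FDPS 0.29 ± 0.16 and DHCR7, with 1096.3 and 1099.9 against 1350.6 and 1277.2, 0.26 ± 0.18. INSIG2, at -0.12 ± 0.19, was the sole member with both ITGB4 arrays below both untreated arrays (3.23%, against 12.2% of all genes), and 9 (29%) had both above, against 13.6%. All 7 mevalonate genes had a difference above 0, between 0.06 and 0.32, and none of them was called. The median was 0.07 over the members and 0 over all genes. Both ITGB4 arrays were high-score arrays, so only 1 untreated array is of their kind, and against it FASN was 0.46 higher.

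**Figure D5:**
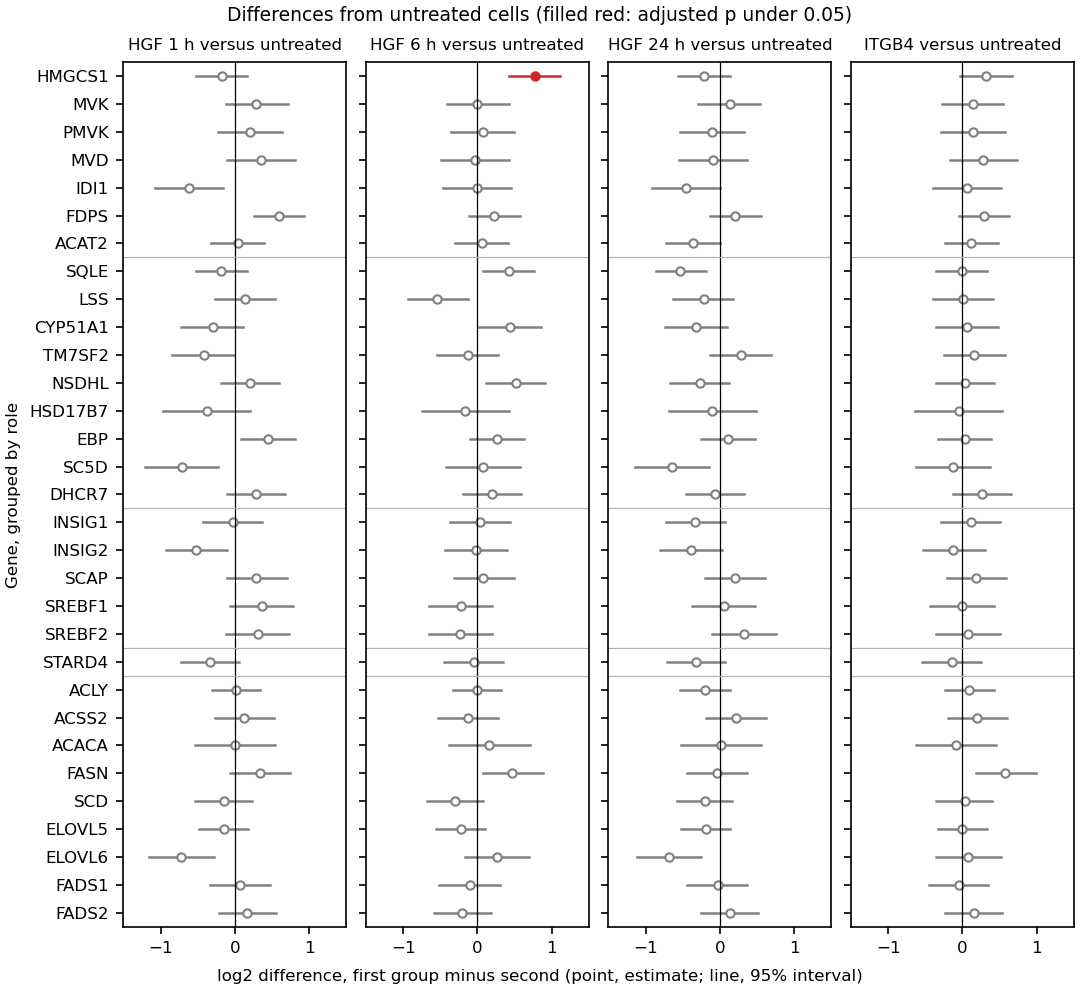
Log2 difference of each of the 31 tested members from untreated cells at HGF 1 h, 6 h and 24 h and in ITGB4 cells, with its 95% interval from limma; the filled red point has an adjusted p below 0.05. HMGCS1 at 6 h is the one called difference, and all 4 panels share the same untreated arrays.

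Spans over the arrays differed among the other fatty acid genes. ACLY ranged from 1252.2 to 1589.9 and ELOVL5, an elongase of polyunsaturated chains, from 937.4 to 1165.3, spans of 0.34 and 0.31 on the log2 scale that were the smallest among the tested members. FADS1 and FADS2, the front-end desaturases, spanned 0.42 and 0.62, and ACSS2, which makes acetyl-CoA from acetate, 0.55. ACACA spanned 0.74 around the limit of detection. Within the cholesterol route, PMVK and MVD, the kinase and the decarboxylase that follow mevalonate kinase, spanned 0.68 and 0.90, TM7SF2 1.00, and HSD17B7, a sterol ketoreductase, 0.87. None of these genes was called in any of the 6 comparisons. HSD17B7 had an SD of 0.49 between the 2 untreated arrays and 0.59 at 24 h, so its differences had the widest intervals of the sterol genes.

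Other genes of lipid handling gave a background to these values. The 32 genes listed cover uptake, efflux, esterification, transport and oxidation, and also synthesis and its control (such as ELOVL1, GGPS1 and MBTPS1). Of these, 21 were tested, and 0 were called against untreated cells in limma in any of the 4 comparisons. At an unadjusted p below 0.05 in limma were 5, 3, 3 and 0 after 1 h, 6 h and 24 h and in ITGB4 cells. Between 1 h and 6 h, 3 of these 21 were called, beside 4 of 31 members, with 2.61% of all genes called higher and 2.9% lower. Between 6 h and 24 h, 2 were called, beside 5 of 31 members, with 4.85% of all genes higher and 4.68% lower. From 1 h to 6 h, ABCA1, the cholesterol exporter, rose by 0.88 ± 0.23 (adjusted p = 0.046). OSBP, the oxysterol-binding protein, and MID1IP1, a partner of acetyl-CoA carboxylase, fell by 0.80 ± 0.18 (adjusted p = 0.028) and 0.90 ± 0.18 (adjusted p = 0.019). From 6 h to 24 h, SOAT1, which esterifies cholesterol, fell by 0.74 ± 0.19 (adjusted p = 0.03), and OSBP rose by 0.83 ± 0.18 (adjusted p = 0.014). The lineage marker MITF fell by 1.06 ± 0.23 at 6 h against untreated cells by its brightest probe (adjusted p = 0.036). Its dimmer probes, detected on 6 arrays and on 1, lay near the limit of detection and differed by 0.10 ± 0.20 and 0.08 ± 0.22. The median over the 6 melanocyte genes, each by its brightest probe, was -0.43. Of the epithelial genes, EPCAM, CDH1 and KRT19 stayed below detection, as did all 3 fibroblast genes, whereas the brighter KRT18 probe differed by 0.52 ± 0.21 (adjusted p = 0.23) and the dimmer by -0.03 ± 0.16, and KRT8, detected on 9 arrays, differed by -0.37 ± 0.16 (adjusted p = 0.26) in the same comparison. The part of these marker values in the members' values at 6 h was not tested. In bulk RNA, fewer cells expressing a gene and less RNA per cell cannot be told apart.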

How the data were processed

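Total RNA of 10 samples was hybridised to 1 array each. For each array the authors deposited a table of linear intensity values, each the mean brightness of the beads of a probe, beside a detection score (a fraction from the authors' software) and the number of beads. Their software was BeadStudio 1.5.1.3 per the labels. A deposited table of the series holds intensity values after the authors' background subtraction and rank-invariant normalisation and served as an alternative. The genome build is not given in the sources used here.

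Of 24136 probes, 22 control probes and 9 lacking a value were left out. Probe names came from the platform annotation for 18758 of the other 24105 and were updated through RefSeq (GRCh38.p14), of which 18688 matched by Entrez number. Probes with a detection score of 0.99 or more on 1 array or more were kept (14018, of 10599 named genes). Scanner intensities were quantile normalised over all probes and log2 transformed without background subtraction, which compresses the differences of dim probes. Group means of all 10 arrays were fitted in limma 3.58.1 (R 4.3.3) with pooled spread (5 residual and 8.16 prior degrees of freedom). P-values are two-sided, and Benjamini-Hochberg adjustment ran over all kept probes of a comparison. Each gene was counted by its brightest kept probe. Per-array values are given for members called in any comparison, for the 4 largest differences in each direction against untreated cells among members whose groups did not overlap, for the regulators, and for the brightest and dimmest member. The fit was tested on simulated data. The members and lists were chosen with earlier results of these data known. With 2 arrays per group, the number of arrays limits precision, and median bead numbers per member probe were 20.5 to 42. An exact permutation test of 2 arrays against 2 could not pass the threshold and was not run. The alternatives tried were the deposited table, median scaling, normexp background correction with an offset of 50, other detection filters, an ordinary test, a fit of the 2 groups alone, replicate and array-background blocks, and leaving out each array.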

Additional observations from a re-analysis of the deposited data

Results flagged for a closer look

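Differences between HGF times in the effect against untreated cells marked 5 members, by the limma test of the difference. From 1 h to 6 h these were HMGCS1 at 0.95, SQLE at 0.60, CYP51A1 at 0.74 and ELOVL6 at 0.98 on the log2 scale. From 6 h to 24 h they were HMGCS1 at -0.99, SQLE at -0.95, CYP51A1 at -0.76, NSDHL at -0.79 and ELOVL6 at -0.95. NSDHL was marked once more because both 1 h arrays lay above, and both 24 h arrays below, the 2 untreated arrays. The 24 h side was a near tie, with 760.5 on HGF 24 h replicate 2 against 761.0 on untreated replicate 2. The 24 h value of NSDHL was 0.48 lower than at 1 h (-0.48), a difference that was not tested. No group had enough arrays to be searched for a single distant array.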

How the results depend on the processing

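Over 19 alternatives, 49 differences of single members were recomputed, those called, the largest against untreated cells and those with an unadjusted p below 0.05. None of them changed sign. In each, the arrays of the 2 groups compared did not overlap, so leaving out 1 array could not change the sign. The detection filters, the ordinary test, the fit of the 2 groups alone and the replicate block leave a difference as it is. The kept signs were therefore largely fixed in advance. The falls of HMGCS1 and SQLE from 6 h to 24 h were called under each alternative. Counts of called members moved more. Against untreated cells at 6 h, the 1 called member became 0 in the deposited value table, with median scaling, with the ordinary test and with only the 2 groups fitted, and 2 with array background as a block. From 1 h to 6 h, the 4 became 0 in the value table and with the ordinary test, and 7 with the array background block. From 6 h to 24 h, the 5 became 2 in the value table and with the ordinary test, and 3 with median scaling or only the 2 groups. In the value table the median of all probes itself lay at 0.113 (1 h), 0.161 (6 h) and 0.109 (6 h against 1 h). Its column for ITGB4 replicate 2 did not match that array's scanner values (Spearman 0.968), unlike the other 9. The causes of these shifts were not tested.

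A fit with a replicate block gave 2 called members at 1 h (FDPS and ELOVL6), 2 at 6 h, 8 from 1 h to 6 h and 8 from 6 h to 24 h, while calls over all probes went from 0%, 1.9%, 4.67% and 8.31% to 3.05%, 7.77%, 13.3% and 16%. Differences between replicates correlated between groups at -0.06 to 0.66 (8 of 10 pairs above 0.1). As 2 pairs were not above it and the labels give no shared batch, the numbers were not used as pairs. All 4 low-score arrays are replicate 1. Within the untreated and HGF groups a shared effect of the number therefore cannot be told apart from that of array background. Both ITGB4 arrays were high-score, and their difference correlated with those of the untreated, HGF 1 h, 6 h and 24 h groups at 0.34, -0.06, 0.21 and 0.43. The source of these correlations was not tested. Leaving out 1 array gave 0 to 1 members at 6 h, 0 without either untreated or either 6 h array. It gave 0 to 6 from 1 h to 6 h, with 0 without HGF 1 h replicate 1 or either 6 h array and 2 without either untreated array. It gave 2 to 5 from 6 h to 24 h, with 2 without either 6 h array and 3 without HGF 24 h replicate 2.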
